A study of Mus musculus with 7 samples.

Results

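The cells described here are the non-cytotoxic alpha beta T cells of the mouse seminal vesicle, called members below. They were chosen by their counts of unique molecular identifiers (UMIs), each of which stands for 1 captured RNA molecule. A member held at least 500 detected genes and at most 10% UMIs from mitochondrial genes. It held at least 2 UMIs of *Cd3d*, *Cd3e* and *Cd3g* together, at least 1 UMI of *Trbc1* and *Trbc2* together, and none of *Trdc* or *Trdv4*. It also held fewer than 5 UMIs of *Gzma*, *Gzmb* and *Nkg7* together, at most 2 UMIs of *C1qa*, *C1qb* and *C1qc* together, and none of *Cd79a*. Of the 40342 cells that passed the limits on genes and mitochondrial UMIs, 394 were members, and they came from all 23 mice.

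Cells of the seminal vesicle, the gland that makes most of the fluid of semen, were profiled by droplet single-cell RNA sequencing in 23 wild-type male mice, in 7 libraries. The aging pool was 1 library of 10 tagged C57BL/6J mice: 2 at 3 months, 4 at 20 months and 4 at 28 months, with 2 mice of each older age treated transiently with rapamycin, an inhibitor of the growth kinase mTOR. The diet pool was 1 library of 8 tagged FVB/NJ mice of 3 months, 2 each on a control, caloric restriction, high fat or low protein diet. The other 5 libraries each held 1 FVB/NJ mouse: a young one of 3 months and an old one of 18 months, and 3 of 3 months, of which 1 was on the control diet, 1 on high fat and 1 on low protein.

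The aging pool was fed chow, and the young and the old individual the control diet. All C57BL/6J mice were in 1 library and on chow, so strain, library and the chow diet cannot be told apart. Age and drug were unbalanced between the strains as well. Of the 10 C57BL/6J mice 8 were 20 or 28 months old, 4 of them on rapamycin. Of the 13 FVB/NJ mice 12 were 3 months old and none was given rapamycin. Most FVB/NJ mice were on caloric restriction, a high fat diet or a low protein diet. The mice of a pool were told apart by sample tags, and the demultiplexed tables' names gave their conditions. After the filter a mouse held between 174 and 9164 cells and between 974010 and 46338707 UMIs, with medians of 687 cells and 5455875 UMIs over the 23 mice.

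Alpha beta T cells carry a receptor made of an alpha and a beta chain, which is held at the membrane and linked to signalling by the CD3 proteins. Helper cells carry the coreceptor CD4 and read peptides on class II molecules, while killer cells carry CD8 and read peptides on class I molecules. Gamma delta T cells use another pair of receptor chains, and in mouse mucosal tissue many of them make interleukin 17. T cells that stay in a tissue and T cells that pass through it differ in genes such as *Cxcr6* and *Itgae* on the one side and *S1pr1* and *Klf2* on the other.

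The libraries of the young and the old individual went against their tissue label. Their filtered cells held 3.54 and 3.03 CPM (counts scaled to the usual common library size) of *Svs5*, the main secretory protein gene of the seminal vesicle, where the next lowest mouse held 34458 CPM. They held 30483 and 44175 CPM of *Gpx5*, a secreted enzyme gene of the epididymis. They gave 27 and 8 members, and the tests between strains and between classes are also given without them. Pooled shares of cells include them. No cell barcode was shared between mice of one pool, and between 6 and 30 barcodes were shared by any pair of the 7 libraries.

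The limits of the rule cut through continuous values. At the lower limit of 2 UMIs of the *Cd3* genes lay 76 members, and 88 cells that met every other condition held 1. At 4 UMIs of *Gzma*, *Gzmb* and *Nkg7* lay 19 members, and 19 cells were left out at 5, while 209 members held none of the 3. A single UMI of *Trdc* or *Trdv4* left out 25 cells that otherwise met the rule. Among the 1076 cells with at least 2 UMIs of the *Cd3* genes, 80 held no UMI of any of the receptor constant genes read here. Members were compared with 265 gamma delta T cells (at least 1 UMI of *Trdc* or *Trdv4*, the other limits kept, *Trbc* not asked) and with 405 cytotoxic lymphocytes (at least 5 UMIs of *Gzma*, *Gzmb* and *Nkg7*), of which 187 met the alpha beta conditions. Median depth was close: 2621 UMIs in members, 2412 in gamma delta T cells and 2575 in cytotoxic lymphocytes. The mix of mice was not: the young and the old individual gave 78 and 25 cytotoxic lymphocytes, 30 and 8 gamma delta T cells, and 27 and 8 members. Pooled shares of cells carry this unlike mix.

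The beta chain constant region, which the rule reads, comes from either of a pair of adjacent genes on chromosome 6 of GRCm38. *Trbc1* lies at chr6:41538218-41539881 and *Trbc2* at chr6:41546730-41548352, both on the plus strand. Their 518 coding bases are 95.6% identical, with 23 bases that differ. The last 158 coding bases, positions 361 to 518, hold 22 of these 23 and are printed because nearly all coding bases that tell the genes apart lie there. Capitals mark the bases that differ between the genes.
Trbc1: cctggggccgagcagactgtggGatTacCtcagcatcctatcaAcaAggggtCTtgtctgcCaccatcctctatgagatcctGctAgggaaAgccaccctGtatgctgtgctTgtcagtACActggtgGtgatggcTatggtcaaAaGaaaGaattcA
Trbc2: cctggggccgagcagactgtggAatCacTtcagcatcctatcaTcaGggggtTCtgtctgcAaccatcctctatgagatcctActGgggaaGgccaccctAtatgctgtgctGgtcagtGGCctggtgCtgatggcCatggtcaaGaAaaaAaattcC

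Of the 394 members, 186 held UMIs of *Trbc2* alone (47.2%), 55 of *Trbc1* alone (14.0%) and 153 of both (38.8%). How reads from the near-identical stretch were shared out between the genes was not tested, so the split is uncertain, and the rule took only the sum.

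Genes the rule did not read were detected at different shares in the members and the other classes. *Trac*, the alpha chain constant gene, was detected in 60.7% of members, 11.7% of gamma delta T cells, 29.9% of cytotoxic lymphocytes and 0.213% of 7055 fibroblasts, a class that should lack it. *Cd2*, an adhesion receptor of T cells, was detected in 63.5% of members, 7.55% of gamma delta T cells, 37.0% of cytotoxic lymphocytes and 0.241% of fibroblasts. *Cd28*, the main costimulatory receptor of T cells, was detected in 45.9% of members, 4.91% of gamma delta T cells and 11.6% of cytotoxic lymphocytes. Of the 405 cytotoxic lymphocytes 187 met the alpha beta conditions of the rule, and in these *Cd2* was at 43.3% and *Cd28* at 16.0%. With each cell thinned to 1000 UMIs, *Trac* was detected in 35.6% of 379 members, 8.16% of 245 gamma delta T cells and 15.5% of 368 cytotoxic lymphocytes, in the same order. *Icos*, the only one of the cells' 4 given markers (*Cd3e*, *Trbc1*, *Trbc2* and *Icos*) that the rule does not read, codes for an inducible costimulator and was found in 36.0% of members but in 48.7% of gamma delta T cells, so it separated members from cytotoxic lymphocytes (9.38%) and not from gamma delta T cells.

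**Figure D1:**
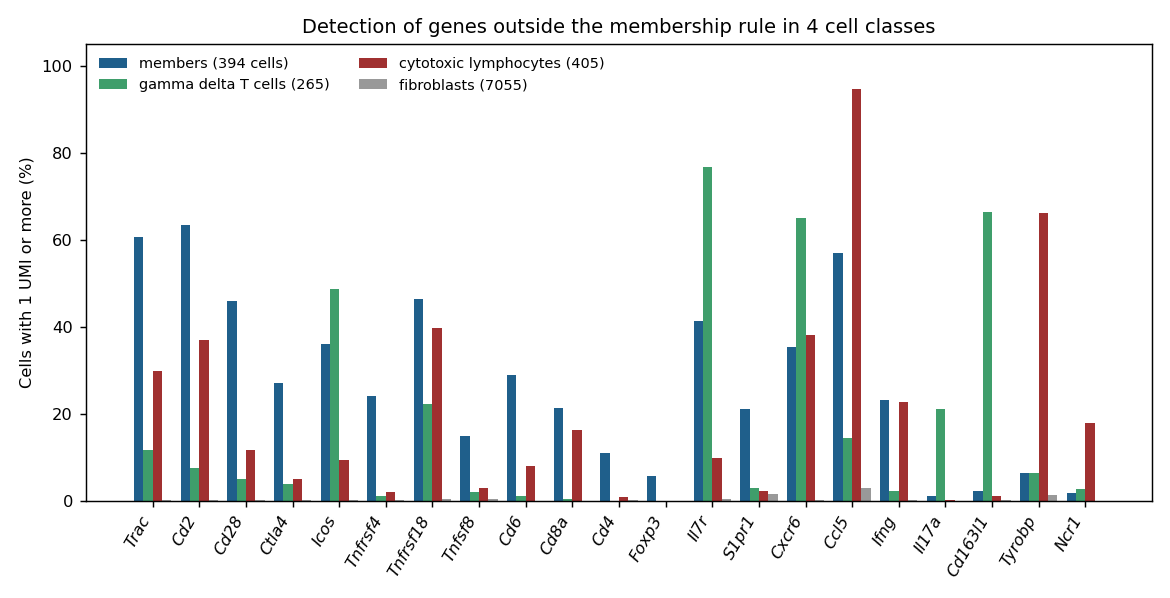
Share of cells with at least 1 UMI (vertical axis, in %) of genes outside the membership rule, in 394 members, 265 gamma delta T cells, 405 cytotoxic lymphocytes and 7055 fibroblasts. *Trac*, *Cd2* and *Cd28* are highest in members, *Cd163l1* (66.4%) and *Il7r* (76.6%) in gamma delta T cells, and *Ccl5* (94.6%) and *Tyrobp* (66.2%) in cytotoxic lymphocytes.

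RNA of other classes was present in members. The macrophage list had UMIs of 4 of 6 genes in 17 members, with *Lyz2* the most abundant at 11 UMIs and the defining genes *Adgre1* and *Fcgr1* at 0. The B cell list had UMIs of 4 of 5 genes in 43 members, with *Ighm* the most abundant at 303 UMIs. The natural killer list reached 51 members (*Tyrobp*, 58 UMIs), and the fibroblast list 72 members (*Dcn*, 642 UMIs). The dendritic cell list reached 56 members (*H2-Aa*, 117 UMIs), and the prostate-like epithelium list 239 members (60.7%, *Spink1*, 18569 UMIs). Secretory RNA was the most widespread, with *Svs5* in 91.1% of members and in 56.3% of fibroblasts. Both shares are pooled over libraries, 2 of which had almost no *Svs5* (3.54 and 3.03 CPM over all their cells). Those 2 libraries gave 35 of the 394 members but 18277 of the 40342 filtered cells. The part of this mix in the gap between members and fibroblasts was not tested. The median member of a mouse held between 0 and 3.80% of its UMIs from 13 secretory products. In 18 members, 14 of them from C57BL/6J mice, over 50% of UMIs came from these products. With the 13 products left out, edgeR called 34 genes higher and 35 lower against cytotoxic lymphocytes (25 and 35 with them), 28 and 67 against gamma delta T cells (27 and 70), and 11 and 13 between strains (14 and 12). With only members of at most 2 UMIs of fibroblast, endothelial, basal, smooth muscle and macrophage markers these counts were 28 and 39, 32 and 51, and 11 and 5, and the strain shares described below were 4.18% and 1.05% (permutation p = 6e-05). The part of B cell, dendritic and natural killer RNA was not tested. Levels below are CPM over the other UMIs.

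The V segments of the receptor, which are rarely reached by reads from the 3′ end, were detected mostly in members and cytotoxic lymphocytes. At least 1 of 128 *Trav* genes was detected in 66 members (16.8%), against 1 of 265 gamma delta T cells 35 of 405 cytotoxic lymphocytes and 4 of 7055 fibroblasts. At least 1 of 35 *Trbv* genes was detected in 49 members (12.4%), against 8 gamma delta T cells, 33 cytotoxic lymphocytes and 0 fibroblasts. The members used 35 *Trav* and 16 *Trbv* genes. *Trbv12-2* was found in the most members, 11 cells of 6 mice, 5 of them in the second C57BL/6J mouse of 3 months. *Trbv19* followed with 8 cells of 6 mice and *Trav16n* with 7 cells of 6 mice. *Trav13n-3* was found in 4 cells, all of the second mouse of 28 months.

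The first comparison asked which genes separate members from gamma delta T cells of the same mouse. In the 12 mice with at least 10 cells of each class, UMIs were summed per mouse and class and fitted with edgeR, mouse as a block. After the filter on low counts, 97 of 817 genes had an adjusted p under 0.05 (11.9%), 27 higher (3.30%) and 70 lower (8.57%) in members. Scaling by library size alone moved the median of all genes to -0.42 on the log2 scale and gave 10 higher and 120 lower, and DESeq2 gave 188 higher and 115 lower. Without the young individual, in 11 mice, 112 genes passed in edgeR. Few T cell genes passed the filter, so the genes of 13 lists (162 genes in all) were also read without it. Adjusted p from edgeR without a filter may be too small. Between ages that fit called 22 genes, where edgeR after the filter and DESeq2 called 0. Genes of the lists are therefore called only where both edgeR without a filter and DESeq2 gave an adjusted p under 0.05. This held for 3.27% of 3858 genes upwards and 2.77% downwards. Of the 162 genes, 102 had an adjusted p from both tools, and 23 were higher and 23 lower in members.

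Among receptor and signalling genes, 8 of 20 were higher in members than in gamma delta T cells and 1 was lower. *Cd2* ranged from 182 to 752 CPM in members, with a median of 340, and from 0 to 102 in gamma delta T cells, with a median of 21.4. The groups did not overlap, and the log2 fold change was 3.74 (standard error 0.33, adjusted p = 2.34e-27 in edgeR without a filter, higher in 12 of 12 mice). *Trac* ranged from 146 to 646 CPM in members and from 0 to 331 in gamma delta T cells, with a log2 fold change of 2.51 and higher values in 11 of 12 mice. The kinase gene *Lck* (log2 fold change 2.32), the scavenger-like receptor gene *Cd6* (3.47), and the CD8 chain gene *Cd8b1* (3.02) were higher too. *Cd8a* was called as well, with 120 UMIs in members and 1 in gamma delta T cells. *Cd247*, which codes for the zeta chain of the receptor, was lower by edgeR and DESeq2 (log2 fold change -1.26) but its call was lost without the young and the old individual. *Cd4*, not given an adjusted p by DESeq2, had 43 UMIs in members of these mice and 0 in gamma delta T cells.

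Of 15 costimulation and checkpoint genes, 5 were higher in members and 1 was lower. *Tnfrsf4*, which codes for the costimulatory receptor OX40, ranged from 15.7 to 699 CPM in members with a median of 143. In gamma delta T cells it was at 0 in 10 of 12 mice and reached 26.1 CPM at most. Over the 12 mice it held 303 UMIs in members and 2 in gamma delta T cells, and members were higher in 12 of 12 mice. The fitted log2 fold change was 5.49 (standard error 0.54, adjusted p = 2.42e-21 in edgeR without a filter). *Cd28* (3.26), *Ctla4* (3.53), the inhibitory receptor that competes with it for ligand, and *Cd27* (2.86) also rose on the log2 scale, as did *Tnfrsf18* (1.47), which codes for GITR. The checkpoint receptor gene *Pdcd1* was lower (-1.62). *Icos* had medians of 196 CPM in members and 313 in gamma delta T cells, with overlapping ranges. Its log2 fold change was -0.63 (adjusted p = 0.291 in edgeR without a filter).

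Lower in members were all 7 of the 12 type 17 genes to which both tools gave an adjusted p. *Cd163l1*, which codes for the scavenger receptor SCART1 of gamma delta T cells, was at 0 in 9 of 12 mice in members and ranged from 132 to 969 CPM in gamma delta T cells. Its groups did not overlap, and its log2 fold change was -6.09 (standard error 0.38, adjusted p = 2.81e-53 in edgeR without a filter). *Il17a*, the signature cytokine gene, held 6 UMIs in members and 207 in gamma delta T cells, and *Blk*, a kinase gene, 3 and 115. *Il23r* (-4.35), *Il1r1* (-2.63) and *Maf* (-1.71) fell as well on the log2 scale. The gamma chain constant gene *Tcrg-C1*, a relative of the genes in the rule, was also lower (-4.97).

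Of 10 cytokine receptor genes 4 were lower in members and none was higher. Of 10 naive and recirculating genes 1 was higher and 1 lower, the latter being *Il7r*. *Il7r*, the receptor gene for a survival cytokine, ranged from 104 to 701 CPM with a median of 199 in members, and from 409 to 1463 with a median of 830 in gamma delta T cells. The ranges overlapped between mice, but members were lower in 12 of 12 mice (log2 fold change -1.80, standard error 0.25, adjusted p = 0.000421 in edgeR). *Cxcr6* (-1.62), *Cd69* (-1.88), *Rora* (-2.02), *Ccr2* (-2.76) and *Il18r1* (-2.03) moved the same way after the filter. *S1pr1*, the receptor gene by which T cells leave tissue, was the higher one (2.54), and of the 12 residency genes 3 were lower (*Cxcr6*, *Cd69* and *Cd44*) and none was higher.

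Effector genes differed in both directions. *Ifng* (4.13), *Fasl* (1.87) and *Tnfsf8* (4.13) were higher on the log2 scale in members, and *Tnf* (-1.84), *Csf2* (-2.21), *Ltb* (-1.43) and *Tnfsf11* (-1.75) were lower. The chemokine genes *Xcl1* (log2 fold change 2.50, adjusted p = 0.00839 in edgeR) and *Ccl5* (3.01, adjusted p = 0.0396 in edgeR) were higher after the filter, and *Ccl5* lost its call without the young and the old individual (adjusted p = 0.0626 in edgeR). *Ifi27l2a*, an interferon-responsive gene, ranged from 47.9 to 1032 CPM in members and from 0 to 171 in gamma delta T cells (3.40, higher in 12 of 12 mice). Outside the lists, *Tmem176a* (-2.87) and *Tmem176b* (-2.79), a pair of membrane protein genes, were among the largest falls after the filter, and *Itgb1* (1.26), an integrin gene, and *Ptpn22* (1.08), a phosphatase gene of T cells, among the largest rises. *9530003J23Rik* and *Svs3b* (3.90), the latter a secretory product, led the rises. The 6 tested genes of the secretory epithelium list had a median log2 fold change of 3.69, against 0.042 for all genes, with 1 called higher.

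**Figure D2:**
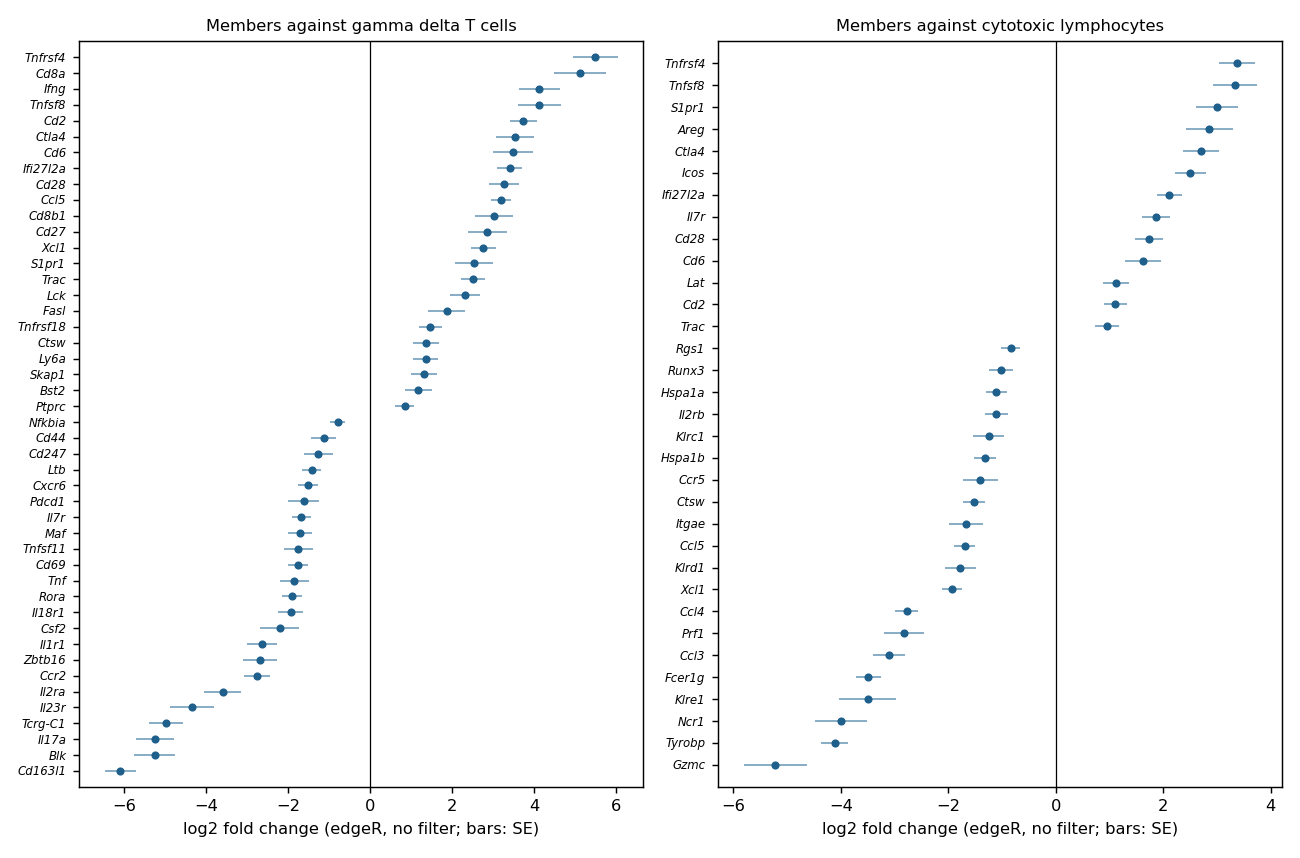
Log2 fold change (horizontal axis, bars show the standard error) of list genes called by both edgeR without a filter and DESeq2, members against gamma delta T cells in 12 mice (left) and against cytotoxic lymphocytes in 13 mice (right). *Tnfrsf4* is the highest in both panels (5.49 and 3.37), *Cd163l1* the lowest on the left (-6.09) and *Gzmc* on the right (-5.22).

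The second comparison asked what separates members from cytotoxic lymphocytes beyond the 3 cytotoxic genes of the rule. After the filter, 60 of 1019 genes had an adjusted p under 0.05 in edgeR in 13 mice (5.89%), 25 higher (2.45%) and 35 lower (3.43%), and library size alone left 3 higher and 24 lower. Without the young individual, in 12 mice, 58 genes passed. By both tools, 0.480% of 4791 genes were called higher and 0.939% lower, and of the list genes 13 were higher and 20 lower among 115 with an adjusted p from both. The classes were split by cytotoxic genes, so the levels of other cytotoxic genes describe that choice.

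Of 17 cytotoxic genes outside the rule, 9 were lower in members and none was higher. *Tyrobp* and *Fcer1g*, adaptor genes of natural killer receptors, had log2 fold changes of -4.09 (standard error 0.34, adjusted p = 9.54e-07 in edgeR) and -3.48 (standard error 0.35, adjusted p = 9.72e-06 in edgeR). *Fcer1g* ranged from 0 to 375 CPM in members and from 290 to 1333 in cytotoxic lymphocytes, so the groups overlapped at their edges, and members were lower in 13 of 13 mice. The pore protein gene *Prf1* (-2.82), the granzyme gene *Gzmc* (-5.22) and the receptor genes *Ncr1* (-4.00) and *Klrd1* (-1.77) fell without the filter. Of 10 chemokine and chemokine receptor genes 5 were lower, among them *Ccl4* (-2.81), *Xcl1* (-1.95) and *Ccl5* (-1.75) after the filter. *Ccl5* was nevertheless found in 224 of the 394 members (56.9%), against 2.82% of fibroblasts.

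Higher in members than in cytotoxic lymphocytes were 4 of 15 costimulation genes and none was lower. *Icos* ranged from 0 to 683 CPM with a median of 211 in members, and from 0 to 80.7 with a median of 38.7 in cytotoxic lymphocytes. Members of 3 rapamycin mice lay within the range of cytotoxic lymphocytes (0, 9.14 and 38.3 CPM), and the log2 fold change was 2.51 (standard error 0.30, adjusted p = 2.79e-14 in edgeR without a filter, higher in 12 of 13 mice). *Ctla4* (2.71), *Cd28* (1.73) and *Tnfrsf4* (3.37) rose with it, as did *Tnfsf8* (3.34), the gene for CD30 ligand, and *Areg* (2.86), a growth factor gene of tissue T cells. *S1pr1* (3.00) and *Il7r* (1.87) rose among the naive and recirculating genes, in 13 of 13 mice each. The residency genes *Itgae* (-1.67), *Runx3* (-1.03) and *Rgs1* (-0.86) fell.

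Of 20 receptor and signalling genes, 4 were higher in members than in cytotoxic lymphocytes and none was lower. *Cd2* was higher in 13 of 13 mice (log2 fold change 1.08, adjusted p = 0.00274 in edgeR), and *Lat*, an adaptor gene of receptor signalling, in 12 of 13 (1.01, adjusted p = 0.0328 in edgeR). *Trac* was at 0.92 (adjusted p = 0.0732 in edgeR) after the filter and was called without it. Against the cytotoxic cells that met the alpha beta conditions, *Cd2* was at 0.54 (adjusted p = 0.112 in edgeR) and *Cd6* at 1.25 (adjusted p = 0.105 in edgeR without a filter), so these calls were lost. *Ifi27l2a* rose here too (2.07, adjusted p = 0.00143 in edgeR). Outside the lists *Cd7*, an early T and natural killer cell marker, fell by 2.92 on the log2 scale (adjusted p = 8.87e-10 in edgeR), with no overlap of ranges except between 297 and 335 CPM.

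Members were mixed in their coreceptors. Of the 394, 114 held UMIs of *Cd8a* or *Cd8b1* and none of *Cd4* (28.9%, 95% Wilson interval 24.7 to 33.6), in 19 mice. *Cd4* without *Cd8* was found in 43 (10.9%, interval 8.20 to 14.4), in 14 mice, and 237 (60.2%) held neither. No member held UMIs of both, which allows a share of cells with both UMIs of up to 0.761% and sets no limit on cells that express both. The cells without a coreceptor UMI were shallower, with a median of 2344 UMIs against 3417.5 for the *Cd8* cells and 2478 for the *Cd4* cells, and an undetected gene is not an absent one. These intervals cover counting error only.

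The *Cd4* and the *Cd8* members differed in genes that were not used to split them. *Tnfrsf4* was detected in 60.5% of *Cd4* members and in 0.877% of *Cd8* members, and *Icos* in 65.1% and 21.1%. *Ccl5* was detected in 23.3% and 92.1%, and *Ctsw*, a cathepsin gene of killer cells, in 4.65% and 64.9%. After thinning to 1000 UMIs *Tnfrsf4* was at 44.2% and 0.877%, *Icos* at 37.2% and 7.89%, *Ccl5* at 11.6% and 82.5% and *Ctsw* at 2.33% and 32.5%, all in the same order. The strain mix of the subsets differed, since 97 of 114 *Cd8* members but 28 of 43 *Cd4* members came from C57BL/6J mice. Within C57BL/6J *Xcl1* was detected in 3.57% of *Cd4* and 59.8% of *Cd8* members, *Ccl4* in 14.3% and 57.7%, *Gzmk* in 7.14% and 23.7%, and *Itgae* in 3.57% and 20.6%. *Tnfrsf18* was at 92.9% and 28.9% there, *Cd5* at 60.7% and 9.28%, and *S1pr1* at 42.9% and 13.4%. Within FVB/NJ, with 15 *Cd4* and 17 *Cd8* members, *Tnfrsf4* was at 60.0% and 0, *Icos* at 53.3% and 41.2% and *Ccl5* at 26.7% and 76.5%. *Xcl1* was at 0 and 23.5%, *Ccl4* and *Itgae* at 0 and 11.8% each, *Tnfrsf18* at 73.3% and 35.3%, and *Cd5* at 26.7% and 0. *S1pr1* was at 13.3% and 11.8% in FVB/NJ and *Gzmk* at 0 in both subsets, so these genes did not show there the gap seen in C57BL/6J. These are shares of cells pooled over mice, given with no test.

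Members with *Foxp3*, the defining transcription factor gene of regulatory T cells, numbered 22 (5.58%, interval 3.72 to 8.31) in 9 mice. No gamma delta T cell (0 of 265, which allows a share of cells with a UMI of up to 1.13%), no cytotoxic lymphocyte (0 of 405, up to 0.741%) and no *Cd8* member (0 of 114, up to 2.63%) held a UMI of it. These limits concern cells with a UMI, not cells that express the gene. *Ctla4* was detected in 86.4% of *Foxp3* members, *Tnfrsf4* in 81.8%, *Ikzf2* in 68.2% and *Maf* in 68.2%, while *Xcl1* and *Ctsw* were at 0. In the aging pool the mice of 3 months held 0 of 15 and 0 of 35 members with *Foxp3*, those of 20 months 0 of 22 and 2 of 15, and with rapamycin 2 of 13 and 0 of 15. Those of 28 months held 6 of 41 and 6 of 63, and with rapamycin 1 of 16 and 0 of 15. The highest share of the pool was in a rapamycin mouse of 20 months (15.4%), and no order by age was tested.

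Genes of residency and of recirculation were both detected in members, and their overlap was not tested. *Cxcr6*, a chemokine receptor gene of tissue-resident T cells, was detected in 139 members (35.3%) of all 23 mice. *S1pr1* was detected in 83 members (21.1%) of 18 mice, and among the *Cxcr6* members in 12.9%. *Klf2*, which drives *S1pr1*, was detected in 67.5% of *S1pr1* members and 43.9% of *Cxcr6* members, but also in 45.6% of fibroblasts. *Cd69* was found in 36.0% of members and *Itgae* in 10.2%.

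Of 19 cytokine genes, 6 were detected in at least 10% of members. *Ltb*, which codes for a lymphotoxin chain, was detected in 39.1% of members and *Tgfb1* in 25.1%, the latter also in 9.55% of fibroblasts. *Ifng* was detected in 91 members (23.1%) of 17 mice, 0.113% of fibroblasts, and 38.6% of *Cd8* members. *Il17a* was found in 4 members, *Il4* and *Il5* in 2 each, *Il13* in 1, *Il21* in 5, *Il2* in 8 and *Il10* in 14. Of the lineage factor genes, *Gata3* was detected in 22.3%, *Tbx21* in 8.63% and *Bcl6* in 3.30%.

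The share of members was next compared between mice. Members made up 4.96% ± 2.07 (SD, n = 10 mice) of filtered cells in C57BL/6J mice. In FVB/NJ mice they made up 1.29% ± 1.13 (SD, n = 13), a 3.85-fold difference (permutation test with 100000 resamples, two-sided, p = 2e-05, the smallest they can give). C57BL/6J ran from 2.15% to 8.25% with a median of 4.58%, and FVB/NJ from 0.0712% to 3.45% with a median of 1.25%. The ranges overlapped between 2.15% and 3.45%. Without the young and the old individual FVB/NJ was at 1.49% ± 1.12 (n = 11, permutation p = 6e-05). Between the pools alone the shares were 4.96% and 1.99% ± 0.845 (n = 8, exact permutation p = 0.000686), and among mice of 3 months, without the young individual, 4.58% and 1.49% (2 against 11 mice, exact permutation p = 0.0256, the smallest these numbers allow).

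The ratio of the strains depended on the denominator. As a share of cells with *Ptprc*, the gene of the pan-leukocyte protein CD45, members made up 13.5% in C57BL/6J and 8.58% in FVB/NJ (permutation p = 0.0129), or 9.33% without the young and the old individual (permutation p = 0.0368). As a share of cells with at least 2 *Cd3* UMIs they made up 41.9% ± 14.7 and 34.4% ± 12.9, and this difference did not pass (permutation p = 0.211, or 0.407 at 36.8% in FVB/NJ without those 2 libraries). The 3 single-mouse diet libraries held 79.8% to 82.0% of UMIs from the 13 products, against 8.75% to 56.4% in the pools and 0.0683% to 0.0792% in the libraries of the young and the old mouse. The part of secretory RNA in the shares was not tested.

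**Figure D3:**
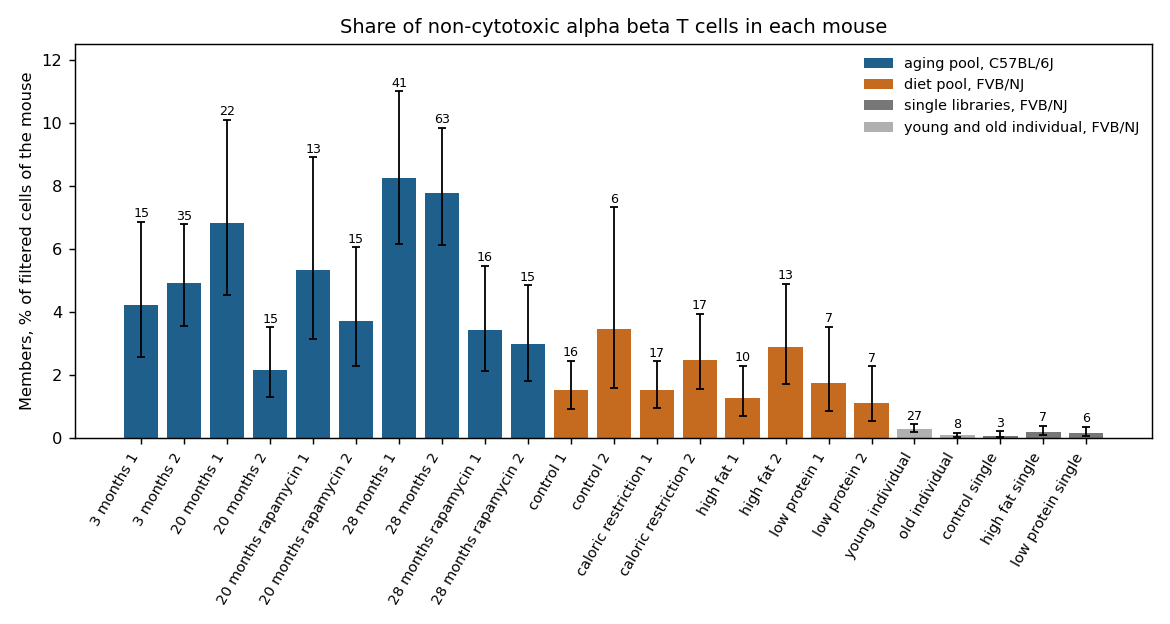
Members as a share of filtered cells (vertical axis, in %) in each of the 23 mice, drawn as columns with 95% Wilson intervals as lines and colours for the set of libraries. The C57BL/6J mice lie between 2.15% and 8.25%, the diet pool between 1.11% and 3.45%, and the 5 single-mouse libraries between 0.0712% and 0.295%.

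Within the aging pool, where strain and library are shared, age was compared first. The mice of 3 months held 4.23% and 4.93% members, and the 8 mice of 20 and 28 months between 2.15% and 8.25% with a median of 4.52%. The older mice surrounded the young ones on both sides. The means were 4.58% ± 0.498 and 5.05% ± 2.33 (exact permutation p = 0.889, two-sided, smallest possible 0.0444). As a share of *Cd3* cells the young mice were at 46.7% and the older at 40.7%, the opposite order (exact permutation p = 0.622). The older group mixed mice with and without rapamycin. Their means were 3.86% and 6.25% of filtered cells, and 31.0% and 50.3% of *Cd3* cells. Age was not tested with all rapamycin mice left out.

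Rapamycin was compared over the 4 treated and 4 untreated mice of 20 and 28 months. The treated mice held 5.33%, 3.72%, 3.41% and 2.97% members. The untreated held 6.81%, 2.15%, 8.25% and 7.79%. All treated mice lay below 3 of the 4 untreated ones and above the second untreated mouse of 20 months. The means were 3.86% ± 1.03 and 6.25% ± 2.80 (exact permutation p = 0.171, smallest possible 0.0286), a difference that did not pass, and without the second untreated mouse of 20 months the untreated mean was 7.62% with no overlap (exact permutation p = 0.0571, the smallest that 4 against 3 allow).

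Gamma delta T cells of the same mice are set beside the members, with no test of their own. They made up 6.56%, 2.48%, 3.62% and 7.33% of cells in treated mice and 0.619%, 1.72%, 3.22% and 4.08% in untreated ones. Members made up 45.5% ± 12.9 of members plus gamma delta T cells with rapamycin and 71.2% ± 15.2 without (n = 4 and 4, exact permutation p = 0.0571), a measure added once the values were known. Its ranges, 28.8% to 60.0% and 55.6% to 91.7%, overlapped.

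**Figure D4:**
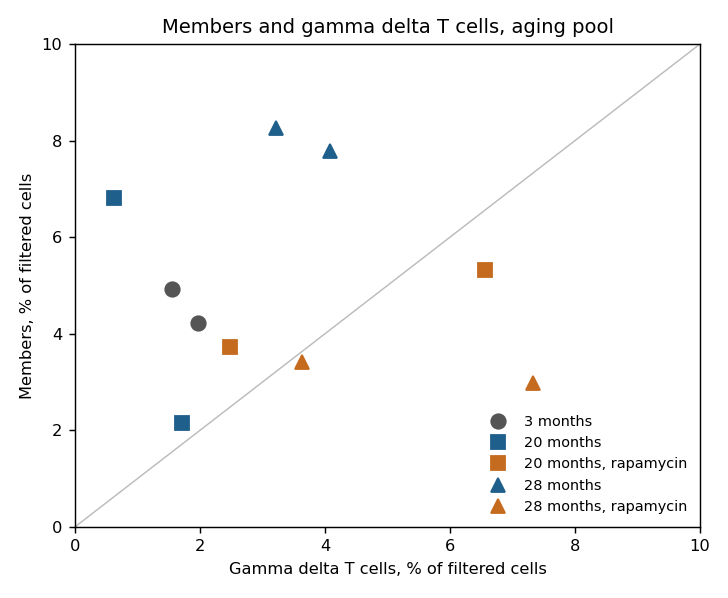
Members (vertical axis) against gamma delta T cells (horizontal axis), both in % of filtered cells, 1 point per mouse of the aging pool, with the line of equal shares in grey. The 4 untreated older mice and the 2 mice of 3 months lie above the line, and 3 of the 4 rapamycin mice lie below it, at gamma delta shares of 3.62% to 7.33%.

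In the diet pool the 2 mice of a diet differed as much as the diets. The shares were 1.51% and 3.45% on the control diet, 1.53% and 2.47% under caloric restriction, 1.25% and 2.90% on the high fat diet, and 1.73% and 1.11% on the low protein diet. Every diet overlapped another (exact permutation test of F, F = 0.395, p = 0.752, smallest possible 0.00952). The mice held between 6 and 17 members each.

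The makeup of the members differed between the strains. In the 10 C57BL/6J and 6 FVB/NJ mice with at least 10 members, the share of members with *Cd8a* or *Cd8b1* and no *Cd4* ran from 22.7% to 80.0% with a median of 37.1%, and from 0 to 18.8% with a median of 6.64%. None of these 6 FVB/NJ mice reached the lowest C57BL/6J mouse. With mice of at least 5 members included (12 FVB/NJ mice) the groups overlapped, with FVB/NJ at up to 50.0% and a mean of 13.9% (permutation test, adjusted p = 0.00248). Among mice of at least 10 members the means were 43.3% ± 17.7 and 7.90% ± 7.78 (exact permutation p = 0.00025, adjusted over 8 subsets 0.002), and without the young individual the adjusted value was 0.00533 by the same exact test. Members with neither coreceptor made up 47.4% ± 15.5 and 78.9% ± 14.1 (exact permutation, adjusted p = 0.005, or 0.0133 without the young individual), and *Itgae* members 14.2% ± 7.80 and 5.09% ± 4.38 (exact permutation, adjusted p = 0.0325, or 0.0195 without the young individual). All 6 FVB/NJ mice were 3 months old and without rapamycin, and they were on the control, caloric restriction or high fat diet. With only the rapamycin mice left out (6 against 6) the *Cd8* means were 34.8% and 7.90% (exact permutation, adjusted p = 0.0173). Members with neither coreceptor were at 52.3% and 78.9% (exact permutation, adjusted p = 0.0173). *Itgae* members, at 12.1% and 5.09%, no longer passed (exact permutation, adjusted p = 0.115). The C57BL/6J mice of 3 months had *Cd8* shares of 40.0% and 34.3%, both above the highest of the 6 FVB/NJ mice, and 2 against 6 mice cannot pass this test at the threshold used.

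Depth moved with strain here. Members held a median of 2769.5 UMIs in C57BL/6J and 2263 in FVB/NJ, and with each member thinned to 1000 UMIs the *Cd8* shares were 20.2% and 6.26% (exact permutation p = 0.0242, adjusted p = 0.194), so no subset passed. FVB/NJ reads were counted on a C57BL/6 reference, and the effect of sequence differences on the *Cd8* counts was not tested. Over all mice 97 of 250 C57BL/6J members (38.8%) and 17 of 144 FVB/NJ members (11.8%) held *Cd8a* or *Cd8b1*. The cytotoxic alpha beta T cells held it in 51 of 81 (63.0%) and 14 of 106 (13.2%) cells, at median depths of 3229 and 1923.5 UMIs, a wider gap in depth than that of the members. Thinned to 1000 UMIs, these cells held it in 26 of 79 (32.9%, 95% Wilson interval 23.6 to 43.9) and 7 of 91 (7.69%, interval 3.78 to 15.0), with 2 and 15 shallower cells left out, and these pooled shares were not tested over mice. *Cd4* members (9.31% and 13.2%, adjusted p = 0.568 by the exact permutation test) and *Foxp3* members (5.91% and 5.53%, adjusted p = 1.0 by the same exact test) did not pass.

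**Figure D5:**
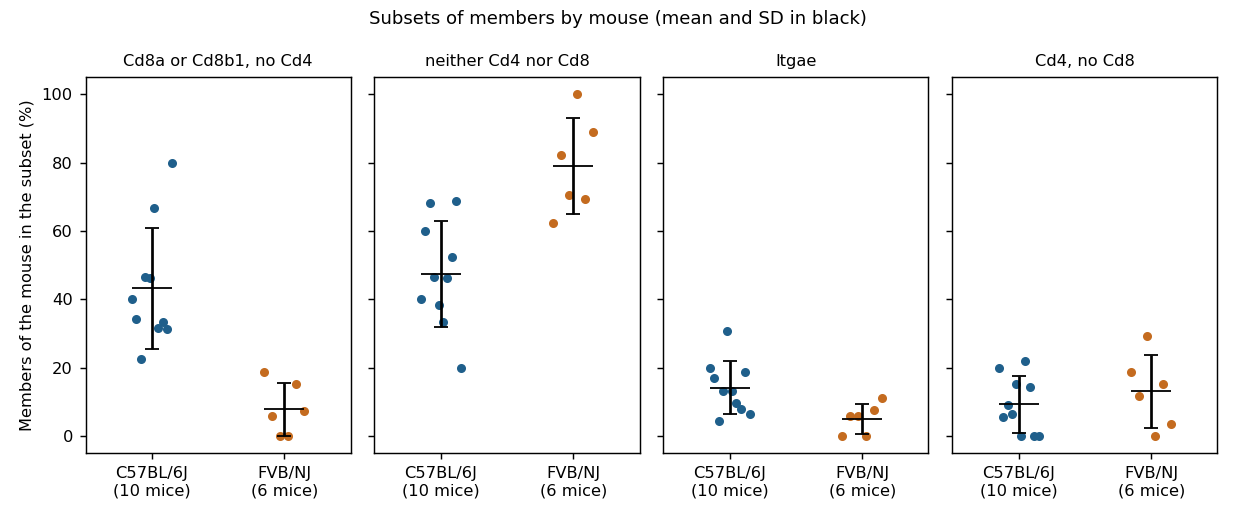
Share of the members of a mouse in 4 subsets (vertical axes, in %), 1 point per mouse with at least 10 members (10 C57BL/6J, 6 FVB/NJ), with mean and SD in black. The *Cd8* shares of these 16 mice run from 22.7% to 80.0% against 0 to 18.8%, without the FVB/NJ mice of fewer members that reach 50.0%, and the *Cd4* share overlaps.

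Across genes, 26 of 1195 had an adjusted p under 0.05 between members of the strains in edgeR (2.18%), 14 higher (1.17%) and 12 lower (1.00%) in C57BL/6J. Library size alone, which moved the median of all genes to -0.41 on the log2 scale, gave 5 and 9, and DESeq2 54 and 7. Without the young individual edgeR called 66 genes, 21 higher and 45 lower. By both tools 1.32% of 3024 genes were higher and 0.198% lower. Of the 84 list genes with an adjusted p from both, 6 were higher and none lower. By edgeR without a filter alone, further list genes passed in both directions. Examples are the interferon response gene *Irf7* (2.30, adjusted p = 0.0283 in edgeR) and the receptor gene *Klrd1* (-2.19, adjusted p = 0.0232 in edgeR). *Ccl4*, a chemokine gene of activated T cells, ranged from 120 to 983 CPM with a median of 321 in C57BL/6J and from 0 to 78.9 with a median of 16.4 in FVB/NJ. The groups did not overlap, and the log2 difference was 4.22 (standard error 0.76, edgeR adjusted p = 0.00687).

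*Ifng* ranged from 73.1 to 704 CPM in C57BL/6J and from 0 to 71.9 in FVB/NJ, also without overlap (log2 fold change 2.80, standard error 0.69, adjusted p = 0.0398 in edgeR). With library size alone its adjusted p was 0.077 in edgeR. *Cd8a* (2.52, adjusted p = 0.00134 in edgeR without a filter) and *Ccl5* (1.80, adjusted p = 0.00288 in edgeR without a filter) were called by both tools, while *Ccl5* did not pass after the filter (1.61, adjusted p = 0.0871 in edgeR). *Klf2*, a transcription factor gene of quiescent T cells, was called in the same way (1.51, adjusted p = 0.0157 in edgeR without a filter) and did not pass after the filter (adjusted p = 0.0955 in edgeR). *Nfkbia*, a feedback inhibitor gene of NF-kappa-B on the list of immediate early and stress genes, ranged from 805 to 2031 CPM in C57BL/6J and from 276 to 701 in FVB/NJ, without overlap (1.25, adjusted p = 0.00995 in edgeR). *Jund*, of the same list, passed after the filter (0.76, adjusted p = 0.0402 in edgeR) but not without it (adjusted p = 0.0777 in edgeR), and with library size alone neither passed (adjusted p = 0.171 and 0.515 in edgeR). The next counts are raw UMIs, from 250 members of the 10 C57BL/6J mice and 100 members of the 6 FVB/NJ mice. *Gzmk*, a granzyme gene outside the rule, held 56 UMIs, spread over all 10 C57BL/6J mice, and 0 in the 6 FVB/NJ mice. *Ccl3* held 55 UMIs in 8 of the 10 and 0 in the 6, but DESeq2 gave neither an adjusted p. *Il1rl1*, which codes for the interleukin 33 receptor, held 10 UMIs in C57BL/6J and 26 in FVB/NJ, in 4 of 10 and 6 of 6 mice. *Cd8* members made up 43.3% of members in these C57BL/6J mice and 7.90% in the FVB/NJ mice, and *Ccl4*, *Ccl5* and *Ifng* were often detected in *Cd8* members. Among pooled *Cd8* members *Ccl4* was detected in 57.7% in C57BL/6J and 11.8% in FVB/NJ, and *Ccl5* in 94.8% and 76.5%. The part of the *Cd8* makeup in the strain differences of genes was not tested.

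With the rapamycin mice left out (6 against 6) edgeR called 7 of 749 genes, 5 higher and 2 lower, and DESeq2 39. *Nfkbia* was still called (1.35, adjusted p = 0.0211 in edgeR) and *Jund* was not (adjusted p = 0.0909 in edgeR). *Ccl4* and *Ifng* fell under the filter there, and in DESeq2 they were at 4.05 and 2.84 on the log2 scale (adjusted p = 6.56e-05 and 0.00109), with both also called by edgeR without the filter. *Ccl5* and *Klf2* no longer passed in DESeq2 (adjusted p = 0.0943 and 0.118). Among mice of 3 months (2 against 6) edgeR called 0 of 1075 genes, with 73 at an unadjusted p under 0.05, and DESeq2 called 1, which was *Ccl4* (4.71, adjusted p = 0.0257). Without the filter edgeR called 107 there, and *Ccl4* was at 4.54 (adjusted p = 6.86e-12 in edgeR). That p rests on 2 C57BL/6J mice and may be too small. In the 6 against 6 mice *Ccl5* had an adjusted p of 0.000136 in edgeR without the filter and 0.183 in edgeR after it.

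Genes outside the lists changed as well between the strains. *Txnip* (log2 fold change 1.89), *Ms4a4b* (2.38), a membrane protein gene of T cells, and the ubiquitin gene *Ubb* (1.68) were higher in C57BL/6J. *Cd7* (-1.50), *Crip1* (-1.25) and *Ucp2* (-0.69) were lower. *Svs3a* (5.66) and *Spink1* (5.59), secretory products, led the rises. *Svs3a* was at 201 to 33140 CPM in members of C57BL/6J mice and at 0 to 828 in FVB/NJ mice. Over the 6 tested genes of the secretory epithelium list the median log2 fold change was 3.56, against 0.003 for all genes, with 1 called higher. Between ages and with rapamycin no gene passed in edgeR (0 of 2419 and 0 of 1447, 0.00% each), with 38 and 32 genes at an unadjusted p under 0.05, and DESeq2 called 0 and 1. Without the filter edgeR called 22 and 1, and with members of few other-class UMIs, which left 7 of the 8 mice, 47 genes passed for rapamycin.

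*Icos* was low in 3 of the 4 rapamycin mice, and it is named here after its values were seen. It stood at 111, 38.3, 9.14 and 0 CPM in members of the treated mice and at 96.7, 134, 271 and 343 CPM in the untreated mice. The groups overlapped by 1 mouse, and the gene was not called (log2 fold change -2.55, standard error 0.68, adjusted p = 0.649 in edgeR without a filter). The makeup of the members moved with it. *Cd4* members without *Cd8*, in which *Icos* was more often detected, numbered 2 of 13, 0 of 15, 0 of 16 and 0 of 15 in the treated mice, and 2 of 22, 1 of 15, 9 of 41 and 9 of 63 in the untreated ones. *Cd8* members without *Cd4* made up 46.2%, 66.7%, 31.2% and 80.0%, and 22.7%, 46.7%, 31.7% and 33.3%. The part of this makeup in the *Icos* levels was not tested.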

How the data were processed

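The authors deposited UMI counts per gene and cell, made with Cell Ranger (6.0.1 for the pools, 3.1.0 for the single libraries) on mm10, with Seurat also named in the submitters' processing notes. The pool tables held 32285 genes and those of single libraries had 31053 genes, of which 30406 were shared and used here, and 12 multiplexing tags were left out. Groups came from the labels, and the mice of a pool from the names of the demultiplexed tables.

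Cells with at least 500 genes and at most 10% mitochondrial UMIs were kept. No doublet caller was run, and intervals cover counting error only. Mice, not cells, were the replicates. UMIs were summed per mouse and class (at least 10 cells) and tested with edgeR 4.0.16 (quasi-likelihood, TMM, filterByExpr) in R 4.3.3, p-values being adjusted over every tested gene by Benjamini-Hochberg. DESeq2 1.42.0 was an alternative. The 14 genes the rules read stayed in the library sizes and left the tests. Shares were tested by permutation over mice with scipy 1.17.1 and numpy 2.4.6 under Python 3.11.15, with pandas 2.3.3 and matplotlib 3.10.9. CPM were taken over UMIs without 13 secretory products. Thinned values used 1000 UMIs per cell, and shallower cells were left out.

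Genes of 13 lists could be named, and in each comparison also the 10 largest rises and falls with an adjusted p under 0.05 that, within mice, went 1 way in at least 80% of mice. The *Trbv12-2*, *Trbv19*, *Trav16n* and *Trav13n-3* genes are among the V segments present in both references. The members and lists were chosen with earlier results of these data known. The rapamycin test across genes and the call by both tools were chosen after seeing the data. On simulated counts with a log2 change of 2, 100% of 151 changed genes were recovered for cytotoxic lymphocytes (1026 genes), 100% of 133 for gamma delta T cells (752 genes), 98.6% of 141 for strain (1242 genes) and 48.1% of 154 for age (2584 genes). Alternatives changed the cell filters, the *Cd3* limit, the depth, the denominator, the scaling, the count filter, the tool, the block and the mice. A few genes of the lists are not reported here.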

Additional observations from a re-analysis of the deposited data

Results flagged for a closer look

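Values of 34 groups of 4 to 10 mice were checked for a mouse far from the others, and 3 were found, where chance gives about 1 in 20 groups. Among C57BL/6J mice, *Cd40lg*, the gene of a helper cell ligand, was detected in 22.9% of members in the second mouse of 3 months, and the next highest mouse was at 9.09%. *Ifng* stood at 704 CPM in members of the second rapamycin mouse of 28 months, with the next C57BL/6J mouse at 289 CPM. *Jund*, an immediate early gene, stood at 4327 CPM in members of the first mouse of 20 months, with the next at 3034 CPM.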

How the results depend on the processing

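Of the alternatives for results that answer a comparison, 93 values stayed on their side, 20 counts moved, 2 differences lost their call and 2 turned. A count of genes moved if it changed by more than 1.5 times or to or from 0, and a count of subsets if it changed at all. The causes were not tested. The strain difference in share was 7.48 percentage points of *Cd3* cells (permutation p = 0.211) and 5.05 without the young and the old mouse (permutation p = 0.407). The age difference, older minus 3 months, turned to -5.65 as a share of *Ptprc* cells and -6.03 as a share of *Cd3* cells. No subset passed after thinning (0 of 8), where the *Foxp3* difference turned to -1.32, and with at least 5 members the *Cd4* difference turned to 0.34. Without the rapamycin mice 2 of 8 subsets passed. Against cytotoxic lymphocytes the count of genes was 27 with library size alone, 142 without a filter and 32 with no mouse block. Against gamma delta T cells it was 303 with DESeq2 and 412 without a filter. For age it was 22 without a filter. For strain it was 61 with DESeq2, 14 with library size alone, 134 without a filter and 13 with at least 5 cells. It was 66 without the young individual and 16 with members of few other-class UMIs. It was 7 without the rapamycin mice and 0 among mice of 3 months, settings added after seeing the data. For rapamycin it was 1 with DESeq2, 1 without a filter and 47 with members of few other-class UMIs. Leaving out each mouse gave 0.0191 to 0.891 points for age, -3.76 to -1.72 for rapamycin (-3.76 without the second untreated mouse of 20 months) and F of 0.121 to 1.38 for the diets, and 0 genes in each of 2 runs for age and 8 for rapamycin. Mouse numbers only name mice: deviations of same-numbered mice correlated at -0.448 to 0.283 over 20 pairs. With the replicate block 0 genes passed for age and 0 for rapamycin, and F for the diets was 0.395 (exact permutation p = 0.917). For strain 55 passed, but that fit also left out the young individual, and without that mouse 66 passed with no block. Members held a median of 2621 UMIs, so genes of low level were often undetected.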

Other observations

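*Mki67* or *Top2a*, genes of dividing cells, were detected in 25 members (6.35%) of 13 mice, with a median depth of 4938 UMIs against 2621 for all members. *Mki67* alone was detected in 15 members, 2.26% of gamma delta T cells, 4.44% of cytotoxic lymphocytes and 0.765% of fibroblasts. *Mki67* was detected in 22.7% of *Foxp3* members, 9.30% of *Cd4* members and 0 of 114 *Cd8* members.

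Members with *Itgae*, the integrin gene that holds T cells at epithelium, numbered 40 in 17 mice. *Ccl5* was detected in 87.5% of them, *Xcl1* in 60.0%, *Cd69* in 47.5% and *Fcer1g* in 32.5%. The interferon-responsive gene *Ifi27l2a* was detected in 86.4% of *Foxp3* members, 74.4% of *Cd4* members and 28.9% of *Cd8* members. Immediate early genes were widespread: *Jund* was detected in 91.6% of members, and *Fos* in 48.5% of members and 79.6% of fibroblasts.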
